A study of Mus musculus with 24 samples.

Results

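Pnrc2, Tmed7, Serinc1 and Zfp942 are 4 protein-coding genes that lie outside the segments triplicated in Ts65Dn mice and that were chosen by their lower RNA levels in Ts65Dn than in wt, with the aim that the mice of the 2 genotypes should not overlap. They are 4 of the 55385 genes of the count table, and each identifier matched 1 gene of the GRCm38 annotation. RNA-Seq counts were made from the hippocampus (HIP) and the entorhinal cortex (EC) of 12 male mice aged 5 to 6 months. The groups were 6 Ts65Dn mice and 6 wt littermates on the same mixed B6C3B background, with 1 HIP and 1 EC library from each mouse. Ts65Dn mice model Down syndrome: they carry a freely segregating minichromosome that gives an extra copy of the distal part of Mmu16, homologous to human chromosome 21, and of a centromeric part of Mmu17 whose genes have no such homology. All libraries came from whole tissue, in which fewer cells of a type and less RNA per cell cannot be told apart.

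The 4 genes act at different steps between the gene and the cell surface. PNRC2 is a small coactivator of nuclear receptors that also links the surveillance factor UPF1 to the decapping enzyme, so that mRNAs marked by nonsense-mediated decay lose their cap. TMED7 is a p24 family cargo receptor that travels in vesicles between the endoplasmic reticulum and the Golgi and helps to carry TLR4 towards the cell surface. SERINC1 belongs to the serine incorporators, membrane proteins with many transmembrane passes named for a proposed role in feeding serine into phosphatidylserine and sphingolipid synthesis. ZFP942 is a zinc finger protein of a mouse gene cluster in which KRAB zinc finger genes, which encode DNA-binding repressors, stand side by side.

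The promoters of Pnrc2 and Zfp942, the pair of genes whose levels did not overlap between genotypes in either region, are shown from RefSeq on GRCm38.p6, cut to the bases outside every annotated exon. Motifs found on either strand are in capitals. Pnrc2 lies on the reverse strand, and 246 bases before it, at chr4:135873851-135874096, read 5′ to 3′:
Pnrc2: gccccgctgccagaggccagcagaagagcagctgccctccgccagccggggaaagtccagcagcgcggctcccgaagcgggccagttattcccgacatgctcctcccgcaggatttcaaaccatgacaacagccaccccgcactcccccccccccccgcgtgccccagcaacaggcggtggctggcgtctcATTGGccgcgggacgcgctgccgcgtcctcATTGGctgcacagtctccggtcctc
Zfp942: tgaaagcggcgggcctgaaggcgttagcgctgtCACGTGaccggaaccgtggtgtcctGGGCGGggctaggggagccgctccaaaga

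The second sequence is the gap of 87 bases at chr17:21962465-21962551 between Zfp942, on the reverse strand, and Zfp943, on the forward strand. Both genes start from it in opposite directions, which is why it is shown: their starts are 88 bases apart. The capitals in the Pnrc2 promoter mark 2 CCAAT boxes in reverse orientation, beginning 59 and 29 bases before the RefSeq start. A CCAAT match was present in 33.4% of 32544 promoter windows of that length. The capitals in the Zfp942 gap mark an E box, CACGTG, beginning 54 bases before the start and a GC box, GGGCGG, beginning 29 bases before it. These letters were found in 2.86% and 23.2% of windows of that length. The search on both strands also covered the TATA box (TATAAA), the cAMP response element (TGACGTCA), the ETS motif (CCGGAAG) and the YY1 motif, and these had no match in either sequence, nor did the GC box and the E box in the Pnrc2 promoter or the CCAAT box in the gap. GC content was 69.5% in the Pnrc2 sequence and 66.7% in the Zfp942 gap. RefSeq promoter windows were matched for 2 of the 4 genes.

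Pnrc2 (ENSMUSG00000028675) spans bases 135870918 to 135873850 of chromosome 4, with 2213 bases in exons. Serinc1 (ENSMUSG00000019877) spans 57515774 to 57532530 of chromosome 10, with 5150 bases in exons, and Zfp942 (ENSMUSG00000071267) spans 21926960 to 21962464 of chromosome 17, with 5259. Zfp942 is on the chromosome of the Mmu17 segment but outside it. All 4 genes are on the reverse strand and are poor in GC. The longest transcript had 40.4% GC for Pnrc2, 40.8% for Serinc1 and 37.4% for Zfp942, against a median of 49.6% and a lower quartile of 44.8% over the genes tested in EC. Of the 50-base windows of Zfp942, 5.8% also occur in other genes, most of them in its neighbour Zfp944 (4.55%), so a small part of its reads could be assigned to a relative.

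Tmed7 (ENSMUSG00000033184) spans 46560235 to 46597535 of chromosome 18, also on the reverse strand, with 8839 bases in exons and 42.0% GC in its longest transcript. It shares 838 exon bases, 9.48% of its own, with Ticam2 on the same strand, and 12.1% of its windows occur in other genes. Ticam2 encodes the adaptor TRAM, which acts downstream of TLR4. Its level was 0.886 ± 0.267 CPM (counts scaled to library size; SD, n = 6) in wt HIP and 0.864 ± 0.220 in Ts65Dn HIP, far under that of Tmed7. In EC it was 0.478 ± 0.138 in wt and 0.558 ± 0.0805 in Ts65Dn. A gene is called here when its Benjamini-Hochberg adjusted p, over all genes tested, is under 0.05 in edgeR's quasi-likelihood test, and Ticam2 was not called between genotypes (edgeR adjusted p = 0.963 in HIP and 0.676 in EC).

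Library totals ranged from 23128589 to 40476492 counts. Relative to wt, triplicated genes had a median ratio of 1.37 to 1.54 in 5 of the 6 Ts65Dn mice, over both regions and segments. In the libraries labelled Ts65Dn replicate 3, from 1 mouse, it was 1.02 in HIP and 1.0 in EC on chromosome 16, and 1.01 and 0.961 on chromosome 17, within or just below the wt range of 0.970 to 1.02. That mouse kept its label, and values are given with and without it where they rest on it. Markers of dentate granule and CA1 neurons summed to between 423.1 and 626.1 CPM in HIP and between 25 and 34.4 in EC, and markers of cortical layers to between 172.9 and 274.4 in HIP and between 375.2 and 467.3 in EC, in the direction of the tissue labels. Choroid plexus markers varied from 52.1 to 5078 CPM among HIP libraries, in both genotypes, and from 8.5 to 49.2 CPM among those of EC.

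Expression differed widely among the 4 genes when levels were divided by exon length. In wt HIP, Serinc1 stood at 301.8 ± 7.44 CPM per kb (SD, n = 6), Pnrc2 at 26.3 ± 1.41, Tmed7 at 19.0 ± 1.0 and Zfp942 at 5.88 ± 0.249. The order of the means was the same in the 4 groups. In Ts65Dn EC, Pnrc2 (14.5 ± 0.722 CPM per kb) and Tmed7 (14.1 ± 1.02) were closer to each other than their spread. In Ts65Dn HIP they stood at 18.3 ± 2.51 and 15.7 ± 1.73. Between 395 and 73410 counts lay behind each value, the fewest for Zfp942 and the most for Serinc1.

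Pnrc2, the decapping cofactor, had the lowest levels in Ts65Dn relative to wt. In HIP its level ranged from 54.2 to 62.0 CPM in wt, with a median of 58.2, and from 35.0 to 50.4 CPM in Ts65Dn (median 39.9). In EC it ranged from 40.4 to 48.6 CPM in wt, with a median of 46.0, and from 29.3 to 34.2 in Ts65Dn (median 32.4). The groups did not overlap in either region, and the highest Ts65Dn value in each was that of replicate 3. The mean was lower by 30.6% in HIP and by 29.5% in EC. The log2 fold change was -0.53 (standard error 0.08) in HIP and -0.51 (standard error 0.05) in EC. Without replicate 3 these were -0.60 and -0.53.

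Zfp942, the zinc finger gene, was the other gene without overlap in both regions. In HIP its level ranged from 29.6 to 32.8 CPM in wt, with a median of 30.4, and from 23.2 to 25.6 in Ts65Dn (median 24.6). In EC the wt libraries ranged from 24.2 to 28.4 CPM (median 27.4) and the Ts65Dn libraries from 14.3 to 23.3 (median 20.5). The Ts65Dn spread in EC was the widest of the 4 genes in that region, with a coefficient of variation of 15.9%, and its low end was replicate 3. The log2 fold change was -0.33 (standard error 0.05) in HIP and -0.44 (standard error 0.10) in EC, where it was -0.36 without replicate 3. In HIP it was -0.35 without that mouse.

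Tmed7, the cargo receptor, was separated between genotypes in EC but not in HIP. In EC its level ranged from 151.1 to 174.3 CPM in wt, with a median of 165.0, and from 109.6 to 134.8 in Ts65Dn (median 126.3). In HIP the wt range was 159.0 to 183.0 CPM (median 165.3) and the Ts65Dn range 121.4 to 162.8 (median 135.2). There 5 of 6 Ts65Dn mice were below the lowest wt mouse, and Ts65Dn replicate 5 lay within the wt range. The log2 fold change was -0.28 (standard error 0.07) in HIP and -0.40 (standard error 0.05) in EC. Without replicate 3 these were -0.28 and -0.37.

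Serinc1, the most abundant of the 4, showed the smallest difference. In EC its level ranged from 1844 to 2019 CPM in wt, with a median of 1937, and from 1465 to 1645 in Ts65Dn (median 1558), without overlap. In HIP it ranged from 1511 to 1603 CPM in wt, with a median of 1546, and from 1241 to 1513 in Ts65Dn (median 1403), so that Ts65Dn replicate 5 lay just above the lowest wt library. The mean was lower by 10.1% in HIP and by 19.4% in EC. The log2 fold change was -0.16 (standard error 0.05) in HIP and -0.32 (standard error 0.04) in EC. Without replicate 3 it was -0.13 in HIP and -0.30 in EC.

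**Figure D1:**
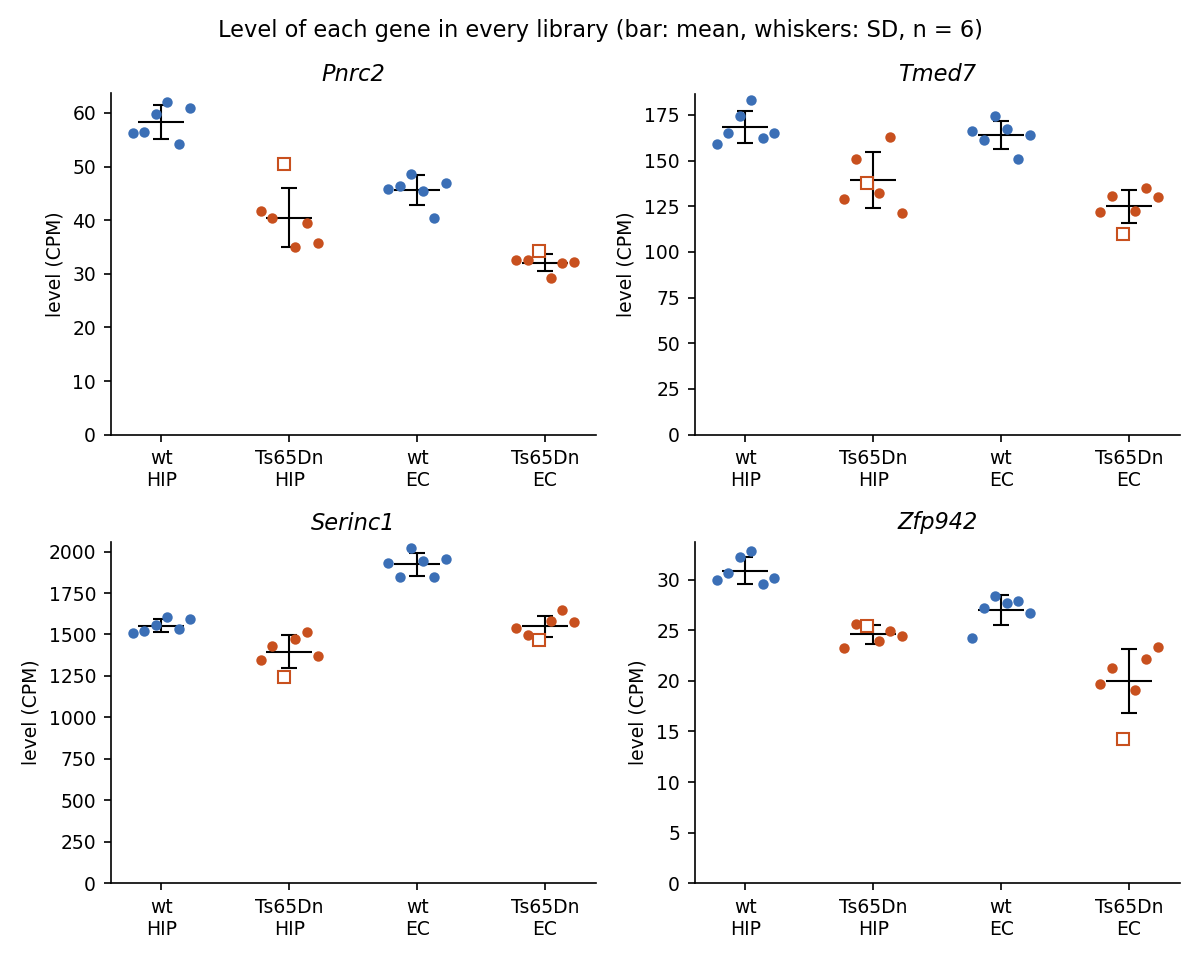
Level of each gene in CPM (vertical axis, from 0) in the 6 libraries of each group (horizontal axis), with wt in blue and Ts65Dn in orange. Bars show the mean and whiskers the SD, and the open square is Ts65Dn replicate 3. Ts65Dn points lie below all wt points in both regions for Pnrc2 and Zfp942 and in EC for Tmed7 and Serinc1.

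These levels chose the 4 genes, so they are described and not tested. The distance between the lowest wt and the highest Ts65Dn library shows how close each gene was to the limit of not overlapping. On the log2 scale it was 0.24 for Pnrc2, 0.17 for Tmed7 and for Serinc1 and 0.05 for Zfp942 in EC. In HIP it was 0.21 for Zfp942 and 0.10 for Pnrc2, just inside the limit, and -0.03 for Tmed7 and -0.0015 for Serinc1, just outside it. For Pnrc2 the gap was set by replicate 3 in both regions. Among the other Ts65Dn mice its highest level was 41.7 CPM in HIP and 32.6 in EC, against lowest wt levels of 54.2 and 40.4. With levels scaled by library total, the gap of Serinc1 in HIP was 0.026 and that of Tmed7 -0.0063, so Serinc1 changed sides with the scaling. The same scaling narrowed the gap of Pnrc2 in HIP to 0.032 and that of Zfp942 in EC to 0.016. For Pnrc2 in EC it was 0.245 and for Zfp942 in HIP 0.148. Over all genes tested, 0.991% were lower in Ts65Dn without overlap in HIP, 1.18% in EC and 0.199% in both. Among 14008 disomic protein-coding genes tested in both regions, 118 were lower without overlap in HIP, 160 in EC and 14 in both. These shares and counts include replicate 3 and were not made without it.

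The triplicated genes of replicate 3 showed no gain over wt. All 8 of its values of the 4 genes, in 2 regions, were below the lowest wt library. The genes were chosen for low levels in the libraries labelled Ts65Dn, this mouse included, so the choice largely set that count and nothing is read from it. Relative to the wt mean, its levels in HIP were 0.866 for Pnrc2, 0.819 for Tmed7, 0.799 for Serinc1 and 0.822 for Zfp942. In EC they were 0.750, 0.668, 0.762 and 0.529 in the same order. In EC it was the lowest of the 6 Ts65Dn mice for Tmed7, Serinc1 and Zfp942 and the highest for Pnrc2. The other 5 Ts65Dn mice had mean ratios of 0.660, 0.828, 0.919 and 0.790 in HIP and 0.696, 0.780, 0.815 and 0.782 in EC.

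**Figure D2:**
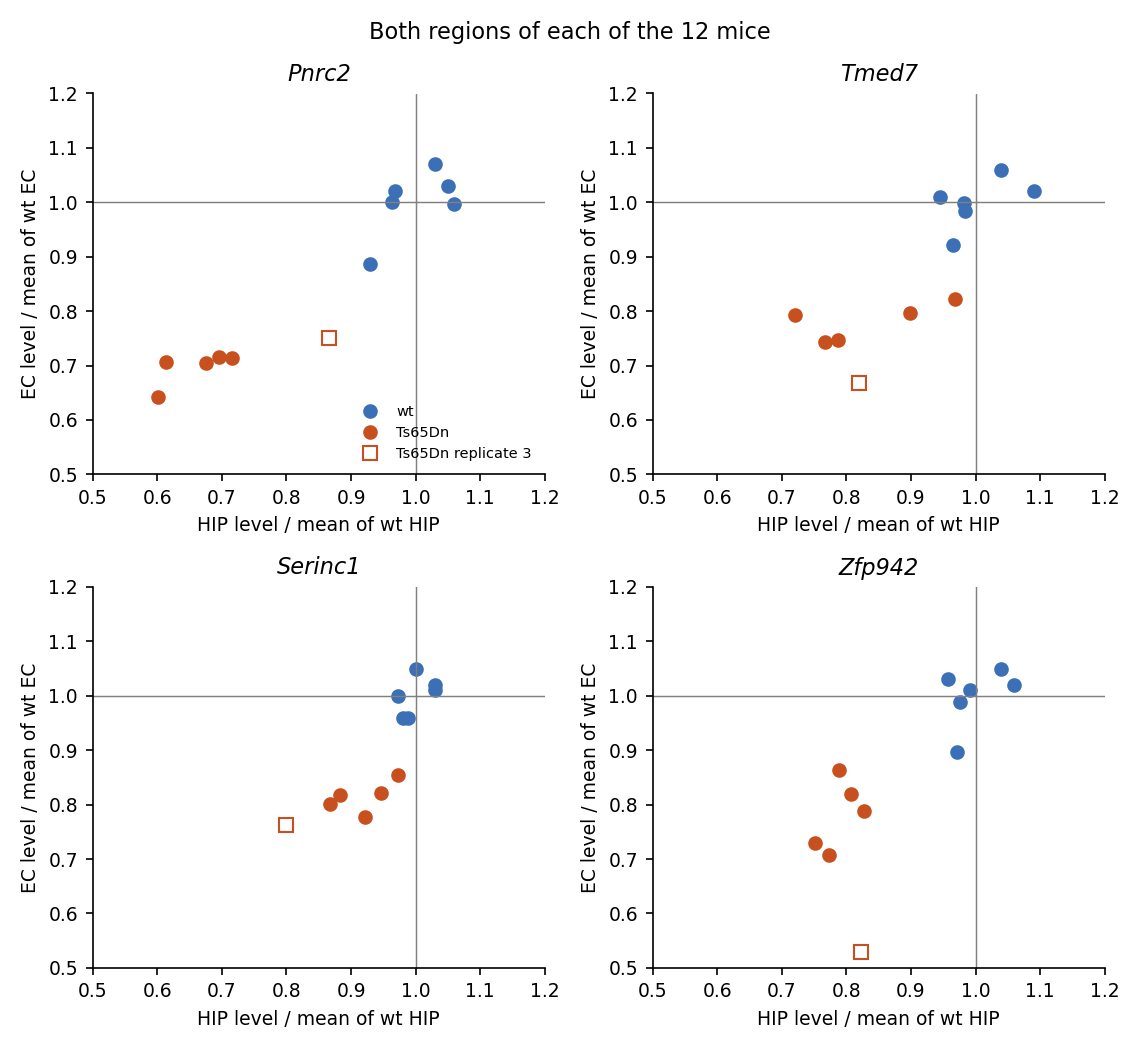
Each point is 1 mouse, with its HIP level divided by the mean of wt HIP (horizontal axis) and its EC level divided by the mean of wt EC (vertical axis), both without unit. The 6 Ts65Dn mice lie below the wt mice on the vertical axis in all panels. The open square, Ts65Dn replicate 3, lies at 0.866 and 0.750 for Pnrc2 and at 0.822 and 0.529 for Zfp942.

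Cell markers and base content were set beside these differences. In EC, markers of astrocytes summed to between 5580 and 6392 CPM in wt and between 4265 and 5765 in Ts65Dn, and neuronal markers to between 10070 and 11360 in wt and between 9869 and 10370 in Ts65Dn. In HIP, astrocyte markers ranged from 4728 to 5555 CPM in wt and from 4489 to 5350 in Ts65Dn. By edgeR, 0 of the 6 astrocyte and 7 neuronal markers were called in either region. In EC, 4 and 3 of them had an unadjusted p under 0.05 and DESeq2 called 3 and 2, and in HIP 2 and 2 had one and DESeq2 called 1 and 0. Among 6 microglial markers 1 was called, P2ry12 (named after its values were seen), a purinergic receptor of resting microglia, which was lower in both regions (log2 fold change -0.27 in HIP, edgeR adjusted p = 0.0422, and -0.45 in EC, edgeR adjusted p = 0.0226). The markers Cx3cr1, Csf1r, Tmem119 and C1qa had log2 fold changes from -0.04 to 0.18 in HIP and from -0.12 to 0.08 in EC. The 6 summed to between 355.1 and 400.0 CPM in wt HIP and between 328.7 and 383.2 in Ts65Dn HIP, and to between 379.2 and 525.3 in wt EC and between 362.0 and 463.2 in Ts65Dn EC. The part of cell composition in the levels of the 4 genes was not tested. After a smooth trend with GC content and length was removed from each library, the log2 fold changes stayed below 0 and became smaller, at -0.44 for Pnrc2, -0.21 for Tmed7, -0.07 for Serinc1 and -0.20 for Zfp942 in HIP. In EC they were -0.40, -0.32, -0.21 and -0.26 in the same order.

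**Figure D3:**
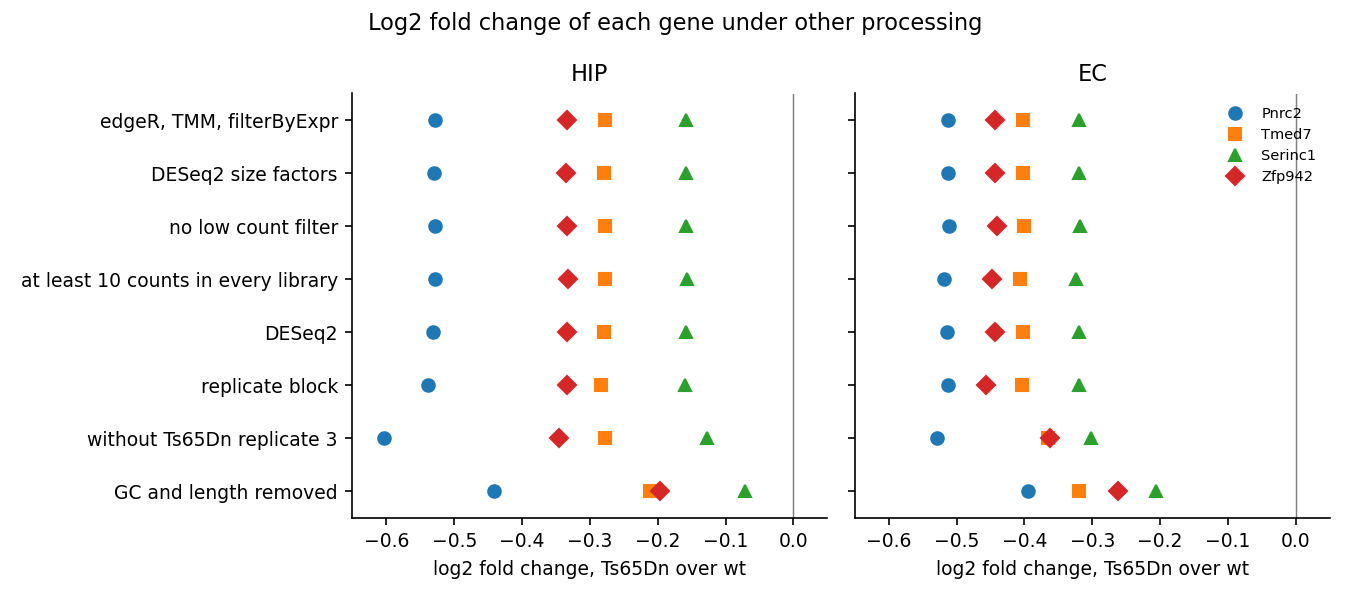
Log2 fold change of Ts65Dn over wt (horizontal axis) for the 4 genes under 8 ways of processing (vertical axis), in HIP and EC. All points lie below 0, a sign that the choice of the genes largely set. The values closest to 0 come from the fit with GC content and length removed, -0.07 for Serinc1 in HIP.

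The comparison of HIP with EC was not used to choose the genes, and was tested within each genotype on 6 HIP and 6 EC libraries of the same mice. Unless a block is named, the fit did not pair the libraries of a mouse. Pnrc2 was higher in HIP and Serinc1 in EC, in both genotypes. Over all genes tested, 28.1% were called higher in HIP and 27.1% lower in wt, and 24.8% higher and 23.5% lower in Ts65Dn, so regional differences were common. For Pnrc2 the log2 fold change of HIP over EC was 0.35 (standard error 0.05, edgeR adjusted p = 3.04e-05) in wt and 0.33 (standard error 0.08, edgeR adjusted p = 0.00402) in Ts65Dn. The HIP level was above EC in 6 of 6 mice of each genotype, by 1.22 to 1.36 times in wt and by 1.11 to 1.48 times in Ts65Dn.

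For Serinc1 the log2 fold change of HIP over EC was -0.31 (standard error 0.04, edgeR adjusted p = 3.95e-06) in wt and -0.16 (standard error 0.06, edgeR adjusted p = 0.0361) in Ts65Dn. All 6 mice of each genotype had less Serinc1 in HIP than in EC. In the unpaired fit, the call in Ts65Dn was lost when any of 5 mice was left out: edgeR adjusted p was 0.120 without replicate 1, 0.0503 without replicate 2, 0.0551 without replicate 4, 0.0549 without replicate 5 and 0.102 without replicate 6. With the mouse as a block over all 6 mice, the log2 fold change was -0.16 (edgeR adjusted p = 0.0212). No mouse was left out of the fit with the block. The difference between the genotypes in this contrast was not tested, since it holds the differences that chose the gene.

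Zfp942 was higher in HIP by 0.19 (standard error 0.05, edgeR adjusted p = 0.00425) on the log2 scale in wt and by 0.29 (standard error 0.10, edgeR adjusted p = 0.0210) in Ts65Dn, in 6 of 6 mice of each genotype. Replicate 3 had the largest ratio of HIP to EC, 1.78, and without it the log2 fold change was 0.21. Without replicate 4 the call in Ts65Dn was lost in the unpaired fit (edgeR adjusted p = 0.0560). With the mouse as a block over all 6 mice, edgeR adjusted p was 0.0175. With GC content and length removed, Zfp942 was not called in either genotype (log2 fold change 0.06, edgeR adjusted p = 0.293 in wt, and 0.13, edgeR adjusted p = 0.107 in Ts65Dn).

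Tmed7 was not called between the regions. Its log2 fold change of HIP over EC was 0.03 (standard error 0.04, edgeR adjusted p = 0.537) in wt and 0.15 (standard error 0.07, edgeR adjusted p = 0.108) in Ts65Dn, and its HIP level exceeded its EC level in 5 of 6 mice of each genotype. With GC content and length removed, the direction in wt turned to -0.10 (edgeR adjusted p = 0.0477). The regions differed in their cells: markers of oligodendrocytes summed to between 6698 and 10520 CPM in HIP and between 1386 and 2859 in EC. Their part in the regional levels was not tested.

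**Figure D4:**
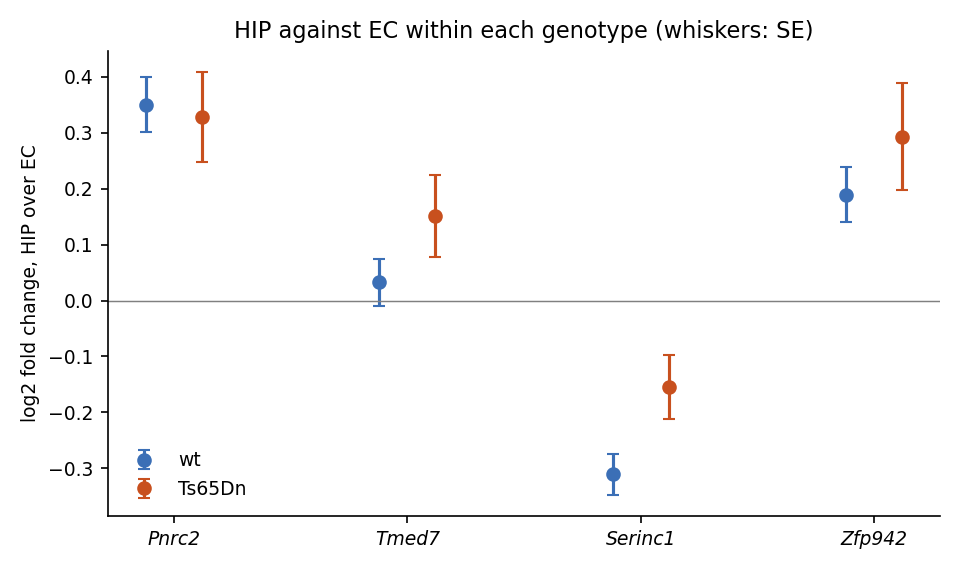
Log2 fold change of HIP over EC (vertical axis) for each gene in wt (blue) and Ts65Dn (orange), with the standard error as whiskers. Pnrc2 and Zfp942 lie above 0, Serinc1 below 0, at -0.31 in wt and -0.16 in Ts65Dn, and Tmed7 close to 0 in wt.

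The other genes of each pathway were examined in lists set by function or position, with p-values adjusted over all genes tested. Between genotypes, 0.542% of all genes tested were called higher and 0.501% lower in HIP, and 1.15% higher and 1.35% lower in EC, and the median log2 fold change over all genes was 0.005 in each region. These shares moved with the libraries and the processing: of all genes, 181 were called in HIP and 426 in EC, against 318 and 480 without replicate 3 and 59 and 130 with GC content and length removed. A log2 fold change below 0 was found for 48.7% of all genes tested in each region. The shares of all genes at an unadjusted p under 0.05, or called by DESeq2, were not counted. Such counts for the lists and the markers therefore stand without a background. Of 30 genes of mRNA decapping and nonsense-mediated decay, 1 was lower in HIP, 0 were higher, and 0 were called in EC, where 8 had an unadjusted p under 0.05 and DESeq2 called 0. Without replicate 3, 1 was called lower in EC. The median log2 fold change of the list was -0.002 in HIP and -0.012 in EC. The gene called was Upf3b, which ties the exon junction complex to nonsense-mediated decay. Its level was 23.4 ± 1.64 CPM in wt HIP and 19.1 ± 1.30 in Ts65Dn HIP (SD, n = 6), a log2 fold change of -0.30 (standard error 0.06, edgeR adjusted p = 0.0367), and the groups did not overlap. Without the filter on low counts 0 genes of this list were called in HIP, and of the fits that left out 1 mouse, a gene of it was called in HIP only in the one without Ts65Dn replicate 3. Pnrc1, the paralog of Pnrc2, had a log2 fold change of -0.18 in HIP and -0.29 in EC and was not called (edgeR adjusted p = 0.464 and 0.208).

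Of 35 genes of p24 cargo receptors and coats of the early secretory pathway, 33 were tested in HIP and 32 in EC, and 1 was called, lower in HIP. This was Tmed5, another p24 family member, with 49.5 ± 4.79 CPM in wt HIP and 37.4 ± 4.62 in Ts65Dn HIP (SD, n = 6). The log2 fold change was -0.41 (standard error 0.09, edgeR adjusted p = 0.0372) in HIP and -0.38 (standard error 0.12, edgeR adjusted p = 0.101) in EC. The groups overlapped in both regions. In HIP, leaving out 1 mouse kept a call in the list only for wt replicate 5 and Ts65Dn replicates 2, 3 and 5. In EC, 6 genes of the list had an unadjusted p under 0.05 and DESeq2 called 2. The medians of the list were 0.001 and 0.002. Tmed10, which with Tmed2 forms the core of p24 complexes, had a log2 fold change of -0.06 in HIP and -0.16 in EC (edgeR adjusted p = 0.541 and 0.0521), and Tmed2 -0.05 and -0.13 (edgeR adjusted p = 0.866 and 0.546).

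Of 23 genes of serine incorporators and serine-derived lipid synthesis, 21 were tested and 0 were called by edgeR in either region. An unadjusted p under 0.05 was found for 5 in HIP and 3 in EC, and DESeq2 called 1 and 0. The list median was 0.032 in HIP and -0.008 in EC. Of the paralogs, Serinc3 had a log2 fold change of 0.02 in HIP and -0.09 in EC, Serinc5 0.19 and 0.11, and Serinc2 0.34 and 0.17, with edgeR adjusted p between 0.264 and 0.885. The largest change of the list in either region was that of Sptssb, a small subunit of serine palmitoyltransferase, at -0.12 in HIP and -0.39 in EC (edgeR adjusted p = 0.863 and 0.256).

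Of 16 genes listed as co-repressors that act with KRAB zinc finger proteins, 0 were called by edgeR in either region. The list held Nrbf2, whose role as such a co-repressor was not checked, at 0.15 in HIP and 0.18 in EC on the log2 scale. An unadjusted p under 0.05 was found for 6 in HIP and 4 in EC, and DESeq2 called 0 and 1. In HIP 15 and in EC 13 had a log2 fold change below 0, against 48.7% of all genes tested in each region. The list median was -0.071 in HIP and -0.062 in EC. Cbx3, which encodes a heterochromatin protein of the HP1 family, had the largest change of the list in each region, at -0.35 and -0.26 (edgeR adjusted p = 0.157 and 0.115). Smarcad1, a chromatin remodeller, followed in HIP at -0.20 (edgeR adjusted p = 0.144) and had -0.15 in EC (edgeR adjusted p = 0.404), where Trim33 followed Cbx3 at -0.19 (edgeR adjusted p = 0.102).

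The zinc finger neighbours of Zfp942 on chromosome 17 held 2 of the 4 genes called over the 5 lists in HIP and the 4 called in EC. They are the 19 other protein-coding Zfp genes within 1000000 bases of it. In HIP 2 of 19 tested were called lower, in EC 4 of 18 tested, and 0 were called higher. DESeq2 called 4 in HIP and 5 in EC. Of the neighbours, 18 of 19 in HIP and 16 of 18 in EC had a log2 fold change below 0. Over all genes tested this share was 48.7% in each region. The median of the neighbours was -0.20 in HIP and -0.25 in EC. Without replicate 3, 1 was called in HIP and 2 in EC, and the median was -0.23 in each region. With GC content and length removed edgeR called 0, with 2 in HIP and 5 in EC at an unadjusted p under 0.05, and the medians were -0.06 in HIP and -0.12 in EC. Calls over all genes also fell at that setting, to 59 of 17346 in HIP and 130 of 17041 in EC. Over the 5 lists, leaving out 1 mouse left 0 to 3 genes called in HIP and 1 to 6 in EC. Neither Upf3b nor Tmed5 was called with GC content and length removed. The zinc finger genes resemble each other in sequence, so reads of one may have been counted for another.

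Zfp943, which starts 88 bases from Zfp942 in the opposite direction, was the neighbour called in both regions, in HIP just inside the threshold. Its level was 31.6 ± 1.63 CPM in wt HIP and 27.1 ± 1.36 in Ts65Dn HIP, and 28.1 ± 1.80 in wt EC and 21.5 ± 2.07 in Ts65Dn EC (SD, n = 6), without overlap in either region. The log2 fold change was -0.23 (standard error 0.05, edgeR adjusted p = 0.0498) in HIP and -0.39 (standard error 0.07, edgeR adjusted p = 0.0168) in EC. Zfp948 was lower in HIP, at -0.41 (standard error 0.08, edgeR adjusted p = 0.0334). In EC, Zfp758 was lower by 0.55 on the log2 scale (standard error 0.13, edgeR adjusted p = 0.0412), Zfp994 by 0.44 (standard error 0.11, edgeR adjusted p = 0.0436) and Zfp945 by 0.43 (standard error 0.09, edgeR adjusted p = 0.0290). Of the neighbours in HIP, 1 was called with DESeq2 size factors, 0 without the filter on low counts and 0 to 1 when 1 mouse was left out, and in EC leaving out 1 mouse left 1 to 5 called.

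**Figure D5:**
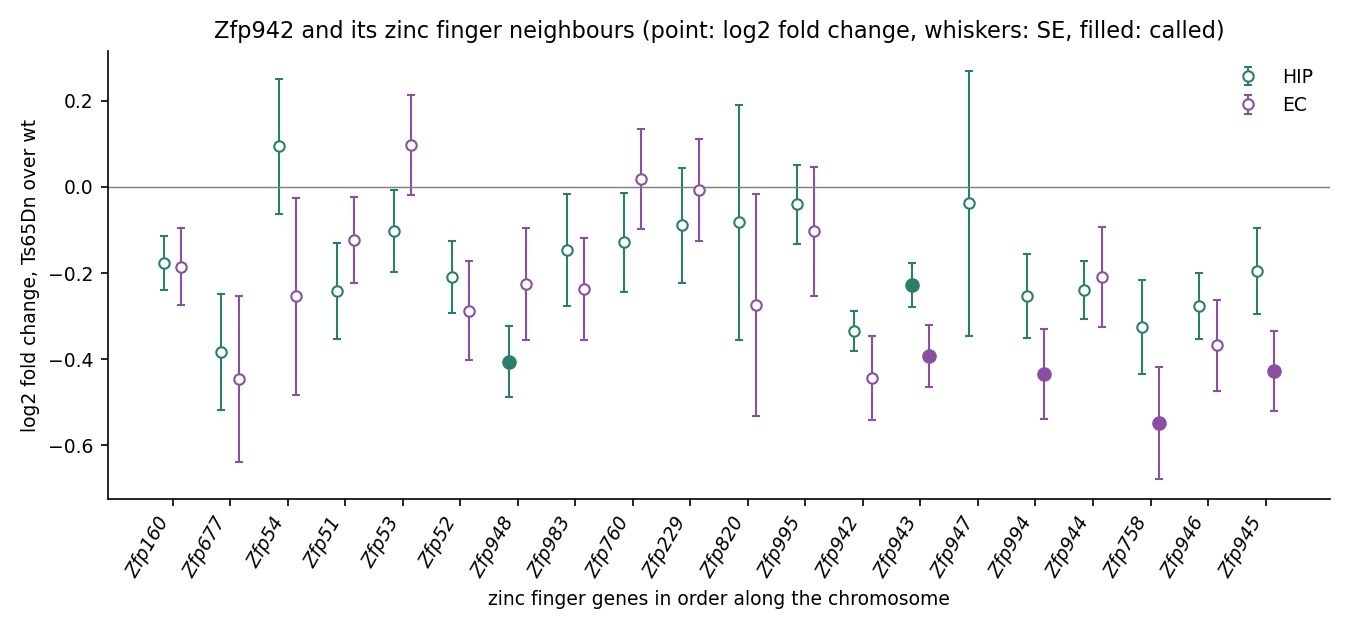
Log2 fold change of Ts65Dn over wt (vertical axis) for Zfp942 and its 19 zinc finger neighbours in their order along the chromosome (horizontal axis), in HIP (green) and EC (purple), with the standard error as whiskers. Filled points are neighbours called by edgeR, 2 in HIP and 4 in EC, all below 0, and Zfp942 was not tested.

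Levels of the 4 genes were then compared from mouse to mouse after each genotype mean was removed, which takes out the difference in means between genotypes. The choice by non-overlap also bears on the spread within groups, which stays in these values. All 4 genes are poor in GC, and the correlations were not run with GC content and length removed. The family held 16 correlations over 12 mice. In EC, Tmed7 went with Zfp942 (Pearson r = 0.76, permutation p = 0.00611, adjusted p = 0.0489; Spearman correlation = 0.70, permutation p = 0.0148, adjusted p = 0.0880). It also went with Serinc1 (Pearson r = 0.75, permutation p = 0.00424, adjusted p = 0.0489; Spearman correlation = 0.68, permutation p = 0.0190, adjusted p = 0.0880). Neither held by rank, and neither passed the adjusted threshold without the 2 mice farthest from the median of Tmed7, with r = 0.66 for Zfp942 (permutation p = 0.0351) and r = 0.53 for Serinc1 (permutation p = 0.119). Without Ts65Dn replicate 3, r was 0.40 and 0.64. Within genotypes, r of Tmed7 and Zfp942 was 0.96 over the 6 Ts65Dn mice and -0.04 over the 6 wt mice. Replicate 3 was the lowest Ts65Dn mouse for both genes in EC, so this relation rested largely on that mouse. Its r over the Ts65Dn mice without replicate 3 was not computed. For Tmed7 and Serinc1, r was 0.69 over the Ts65Dn mice and 0.87 over the wt mice.

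In HIP, Tmed7 and Zfp942 had r = 0.67 (permutation p = 0.0174, adjusted p = 0.0696) and a Spearman correlation of 0.80 (permutation p = 0.00313, adjusted p = 0.0501), with 0.95 over the wt mice and 0.60 over the Ts65Dn mice. Without the 2 mice farthest from the median of Tmed7, r was 0.91 (permutation p = 5e-05). The same gene compared between the regions of a mouse gave r = 0.67 for Pnrc2, 0.66 for Serinc1, 0.39 for Tmed7 and -0.02 for Zfp942 (permutation p = 0.0231, 0.0170, 0.210 and 0.963, adjusted p = 0.0739, 0.0696, 0.335 and 0.963). The Spearman correlations were 0.57, 0.66, 0.47 and 0.33 (permutation p = 0.0588, 0.0220, 0.126 and 0.297). None of these passed the adjusted threshold. Pnrc2 and Serinc1 in HIP had r = -0.54 (permutation p = 0.0741, adjusted p = 0.196), which was 0.13 without replicate 3.

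The genes whose pattern was most like each of the 4 were found by Pearson r over the 24 libraries, on log2 CPM centred on each region mean, among 13030 protein-coding genes. This measure holds the genotype difference, and the libraries share their depth and base composition, so the values are a description. For Pnrc2 they were Gclm (r = 0.88), the modifier subunit of the enzyme that starts glutathione synthesis, Rbbp9 (0.87) and Crebrf (0.87). For Tmed7 they were Vma21 (0.96), an assembly factor of the vacuolar proton pump, Arhgap5 (0.96) and Atad1 (0.95), which pulls misplaced proteins from membranes. For Serinc1 they were Gpm6a (0.95), a neuronal membrane glycoprotein, Ppp3cb (0.94), a catalytic subunit of calcineurin, and Pafah1b2 (0.93).

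For Zfp942 the gene of highest r was its neighbour Zfp943 (0.91), followed by Pter (0.91) and Arhgap5 (0.90). Among the 4 genes themselves, Tmed7 and Serinc1 were the most alike (r = 0.90) and Pnrc2 and Serinc1 the least (r = 0.72). The genes named here as most alike had 33.9% to 43.8% GC in their longest transcript, below the lower quartile of 44.8% over the genes tested in EC.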

How the data were processed

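Libraries were grouped by genotype, region and mouse from the labels. Libraries of the Ts66Yah line were not analysed here. The authors aligned single-end reads to GRCm38 with Hisat2 and deposited raw counts per gene from HTSeq-count. The submitters' processing notes name bcl2fastq 2.17.1.14, DESeq2 and mm10. The strand setting of the counting is not given in the sources used here, and the methods name a total RNA kit with ribosomal RNA removal whereas the labels name a kit for polyA mRNA. The authors' tables of their own comparisons hold fold changes, p-values and scores and were not used. The members and lists were chosen with earlier results of these data known.

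Identifiers were matched to GENCODE vM21 (99.6%), and Tasor was matched by its older symbol. CPM used TMM factors over 24 libraries. Comparisons used edgeR 4.0.16 in R 4.3.3 (filterByExpr, TMM, quasi-likelihood test) within a region or a genotype, with Benjamini-Hochberg adjusted p under 0.05 over all genes tested. 17355 genes were tested in HIP and 17049 in EC between genotypes, and 17196 in wt and 17314 in Ts65Dn between regions. Correlations were made on log2 CPM (prior count 2), by two-sided permutation tests of 100000 resamples (scipy 1.17.1). Alternatives were DESeq2 1.42.0, its size factors, other filters, the replicate block, removal of splines of GC content and length, and leaving out each mouse. Scripts were tested on simulated data.

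HIP and EC libraries with 1 number came from the same mouse by their titles, and their deviations from the group means correlated at 0.30 to 0.49 in wt and 0.23 to 0.48 in Ts65Dn. The mouse as a block left each call of the 4 genes between regions as it was. Named genes were the 4 members, their paralogs, any gene overlapping them, the genes called in each list or else the 2 with the largest change, and the 3 most alike genes by each measure. Each mouse is 1 replicate, so the precision of a value is the spread over 6 mice.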

Additional observations from a re-analysis of the deposited data

How the results depend on the processing

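The log2 fold changes of the 4 genes between Ts65Dn and wt stayed below 0 under each alternative run. The genes were chosen for lower levels in these same libraries, so the choice largely set that sign and nothing is read from it. With GC content and length removed, some log2 fold changes moved by more than the spread between replicates. These were Serinc1 (-0.072) and Zfp942 (-0.20) in HIP and Pnrc2 (-0.40) and Serinc1 (-0.21) in EC. The other values became smaller too, Zfp942 in EC from -0.44 to -0.26, but by no more than that spread. Leaving out 1 mouse gave -0.60 to -0.49 for Pnrc2, -0.33 to -0.24 for Tmed7, -0.18 to -0.13 for Serinc1 and -0.35 to -0.31 for Zfp942 in HIP, and -0.54 to -0.49, -0.43 to -0.37, -0.34 to -0.30 and -0.49 to -0.36 in EC. Between regions, removal of GC content and length turned Tmed7 in wt to -0.10 and left Zfp942 at 0.058 in wt and 0.13 in Ts65Dn, not called. Serinc1 in Ts65Dn was not called without the filter on low counts (-0.16, edgeR adjusted p = 0.0856), and leaving out 1 mouse gave -0.18 to -0.14. For Zfp942 in Ts65Dn that range was 0.21 to 0.35. The cause was not tested in these cases.

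Over the 5 lists, 4 relatives were called in each region. DESeq2 called 7 in HIP and 8 in EC, removal of GC content and length 0 in each, and no filter on low counts 1 in HIP. In HIP the count was 0 without wt replicate 1, 3 or 6 or Ts65Dn replicate 1, 4 or 6, 1 without wt replicate 2, 4 or 5 or Ts65Dn replicate 2, 2 without Ts65Dn replicate 5 and 3 without Ts65Dn replicate 3. In EC it was 1 without wt replicate 1, 4 or 5 or Ts65Dn replicate 1, 2 or 4, 2 without wt replicate 3 and 6 without Ts65Dn replicate 6. With the replicate number as a block, 0 relatives were called in each region. Between genotypes this block pairs unrelated mice: same-numbered libraries had correlations of their deviations from -0.19 to 0.14 in HIP and from -0.10 to 0.16 in EC, and 0 of 6 and 1 of 6 were closest to their own number.

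The count of correlations past the threshold was 2, both in EC, and 3 with scaling by library total. It was 0 without Ts65Dn replicate 3. Without the 2 farthest mice it was 1, a different pair: Tmed7 and Zfp942 in HIP (r = 0.91, permutation test, adjusted p = 0.0008). Signs turned without the 2 farthest mice for Pnrc2 and Serinc1 (0.30 in HIP, -0.17 in EC), Pnrc2 and Tmed7 in EC (-0.44) and Serinc1 and Zfp942 in EC (-0.01). Without Ts65Dn replicate 3 they turned for Pnrc2 and Serinc1 in HIP (0.13), Pnrc2 and Zfp942 in EC (0.21) and Zfp942 between regions (0.49), and with scaling by library total for Serinc1 and Zfp942 in HIP (-0.04).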

Other observations

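Once the 4 group means were removed, other genes were most like each of the 4 over the 24 libraries. Tmed7 then had its highest r with Tmem106b (0.88), a lysosomal membrane protein gene, Rab18 (0.86), a GTPase gene of lipid droplets and the endoplasmic reticulum, and Nucks1 (0.86). Serinc1 was most like Ppp3cb (0.88), Abi2 (0.88) and Nckap1 (0.85), and the last 2 encode subunits of the WAVE complex, which drives branched actin growth. Zfp942 was most like Ireb2 (0.88), an iron-responsive regulator of mRNA, Pibf1 (0.85) and Dhx36 (0.83), a helicase that unwinds G-quadruplexes. Pnrc2 had lower values, with Rora (0.79), an orphan nuclear receptor gene, Sesn3 (0.78) and Ahnak (0.78). On this measure r was 0.59 for Tmed7 with Serinc1 and for Tmed7 with Zfp942, 0.28 for Pnrc2 with Tmed7 and -0.36 for Pnrc2 with Serinc1. These are values over libraries that share depth and base composition, given without a test.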
